A study of Mus musculus with 24 samples.

Results

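The genes of 6 secreted airway proteins were followed across the lung RNA-Seq samples of this series: the BPI-fold genes Bpifa1 and Bpifb1 and the secretoglobin genes Scgb1a1, Scgb3a1, Scgb3a2 and Scgb1c1. They were taken by symbol from the deposited expression table, which lists 23891 genes, and the question was whether the other 5 follow Bpifa1. All 6 had a mean of at least 1 CPM (read counts scaled to a common total per sample) over the samples and entered the tests with 17744 genes in all. The 24 samples were lungs of wild-type C57BL/6 mice in 4 groups. Adult mice given saline were 20 wk old (n = 5), and aged mice given saline were 80 wk old (n = 5). A further group of 80 wk old mice received house-dust mite extract (HDM), an allergen that causes airway inflammation in sensitized mice, at 50 µg per intranasal dose (n = 7). The last group, also 80 wk old, received the same HDM and was treated with the steroid dexamethasone (Dex) throughout the challenge, at 4 mg/kg in each injection and 72 h between injections (n = 7). Lungs of challenged mice were collected 24 h past the final HDM dose, no allele was engineered, and no adult mouse with HDM was analysed here, so that HDM and Dex were compared at one age only.

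Secretory cells of the airway lining coat the airways with a mixture of mucins and small proteins. Club cells, the main secretory cells of mouse bronchioles, make secretoglobins, which are small disulfide-linked proteins with a hydrophobic pocket, whereas BPI-fold proteins are related to the lipopolysaccharide-binding proteins of neutrophils and serum. Bpifa1 encodes SPLUNC1, a surface-active protein of the upper airways and submucosal glands that binds bacterial products and restrains the epithelial sodium channel. Bpifb1 encodes LPLUNC1, a protein of goblet cells and glands. Scgb1a1 encodes the club cell secretory protein CC10, the most abundant of the family. Scgb3a1 and Scgb3a2 encode secretoglobins of the airway lining, and Scgb1c1 encodes a secretoglobin first described in the olfactory mucosa.

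By the GENCODE annotation of GRCm38, Bpifa1 (ENSMUSG00000027483.7) lies on chromosome 2 from 154142880 to 154149219 on the plus strand, with 9 exons of which exons 2 to 8 are coding. Bpifb1 (ENSMUSG00000027485.15) begins 41598 bases after the end of Bpifa1 on the same strand, from 154190818 to 154220369, with 16 exons of which exons 2 to 16 are coding. Another BPI-fold gene, Bpifa5, is annotated between them, from 154162607 to 154168450, and was not analysed here. The secretoglobin genes are spread over other chromosomes and have 3 exons each, all partly coding. Scgb1a1 (ENSMUSG00000024653.2) lies on chromosome 19 from 9083636 to 9087958 on the minus strand. Scgb3a1 (ENSMUSG00000064057.12) lies on chromosome 11 from 49663610 to 49665118 and Scgb1c1 (ENSMUSG00000038801.6) on chromosome 7 from 140845547 to 140846769, both on the plus strand.

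The sequences before the starts of 3 of these genes are shown because the levels of Bpifa1, Bpifb1 and Scgb3a1 varied together within groups, as described below. RefSeq promoters of GRCm38.p6 were found for 4 of the 6 genes, and the 250 bases before each start were searched on both strands for letters of the forkhead family (TGTTTAC and the variant TATTTAC), the NKX2 family (CAAGTG and the variant CTCAAG), a half-site of the glucocorticoid receptor (TGTTCT) and a TATA box (TATAAA). Capitals mark the matches, written as they stand on the plus strand, and positions count back from the start, with -1 the last base shown. The windows are chr2:154142630-154142879 for Bpifa1, chr2:154200130-154200379 for the downstream of the 2 Bpifb1 starts and chr11:49663345-49663594 for Scgb3a1, all on the plus strand.
Bpifa1: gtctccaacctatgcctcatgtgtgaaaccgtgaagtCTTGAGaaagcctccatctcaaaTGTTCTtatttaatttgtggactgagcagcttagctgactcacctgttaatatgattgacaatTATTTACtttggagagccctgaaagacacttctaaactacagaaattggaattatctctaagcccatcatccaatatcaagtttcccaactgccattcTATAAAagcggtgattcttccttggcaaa
Bpifb1, downstream start: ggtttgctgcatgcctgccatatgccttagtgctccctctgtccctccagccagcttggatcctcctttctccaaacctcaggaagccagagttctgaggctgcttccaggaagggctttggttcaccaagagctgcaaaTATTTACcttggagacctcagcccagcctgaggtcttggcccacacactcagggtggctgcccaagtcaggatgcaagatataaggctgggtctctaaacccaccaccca
Scgb3a1: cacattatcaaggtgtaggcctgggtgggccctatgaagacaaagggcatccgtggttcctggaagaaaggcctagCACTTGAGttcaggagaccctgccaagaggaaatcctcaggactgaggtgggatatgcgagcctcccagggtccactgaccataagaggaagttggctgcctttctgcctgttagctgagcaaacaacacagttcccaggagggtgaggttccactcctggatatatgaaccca
Bpifa1 held TATTTAC at -127, TGTTCT at -190, TATAAA at -29 and CTCAAG in reverse at -213. The downstream window of Bpifb1 held TATTTAC at -110, and its upstream window held no match. In Scgb3a1, CAAGTG in reverse at -174 and CTCAAG in reverse at -172 overlapped, and Scgb1c1 held CTCAAG at -147. Of 32851 mouse promoters of this length, 2.73% held TATTTAC, 3.17% TGTTTAC, 11.6% CAAGTG, 13.3% CTCAAG, 16.1% TGTTCT and 12.4% TATAAA on either strand. The TATTTAC matches of Bpifa1 and Bpifb1 were part of a longer shared stretch, TATTTACNTTGGAGA, with 14 of 15 bases identical. The stretch was chosen after both windows had been read, as what they share, so that both had to contain it. No other of the 32851 promoters did, but a stretch this long would rarely recur, so that this count is not a test. A match is only a run of letters, and which Bpifb1 start was used in these lungs was not tested.

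The depth, estimated from the steps between low CPM values, was 10.1 to 33.1 M reads on genes, so that 3 reads corresponded to 0.0906 to 0.298 CPM. The 7SL RNA genes Rn7s1 and Rn7s2 took 9.92% to 42.0% of the CPM, and more than 25% in 10 samples: adult saline replicate 1, HDM replicates 1 to 5 and HDM + Dex replicates 1, 2, 3 and 6. By the X-linked Xist and the Y-linked Ddx3y, the 5 adult samples and 2 of the 5 aged saline samples were female, as were HDM replicates 6 and 7 and HDM + Dex replicates 4 to 7. In the HDM group the 5 male samples were those above 25% 7SL, so that sex and 7SL share cannot be told apart there. HDM replicate 3 had the fewest reads and the most genes without a read (3285). Adult saline replicate 5 stood apart in markers of stratified epithelium, which summed to 1534 CPM against 3.71 to 33.8 CPM in the other samples. The lung label was borne out by surfactant and club cell genes, which summed to at least 3529 CPM (10 alveolar type 2 markers) and 754 CPM (11 club cell markers) in every sample.

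Levels were divided by the length of each gene's exons, as the union over all its annotated transcripts. This length was 3.617 kb for Bpifb1 and 1.545 kb for Bpifa1, whereas their main transcripts have 1699 and 1106 bases. The places of the BPI-fold genes in the orders below depend on which length is taken. Per kb of exon, Scgb1a1 had the highest level of the 6 genes in every group, without overlap with the next. In adult saline samples its median was 8328 CPM per kb, followed by Scgb3a2 (159), Scgb3a1 (123), Bpifa1 (68.1), Bpifb1 (15.9) and Scgb1c1 (7.21 CPM per kb). Only Scgb3a1 and Bpifa1, as neighbours in that order, overlapped between samples. In aged saline samples the order was Scgb1a1 (9561), Scgb3a2 (205), Scgb3a1 (49.9), Bpifa1 (15.5), Scgb1c1 (9.69) and Bpifb1 (4.84 CPM per kb), and every neighbouring pair from Scgb3a1 on overlapped. After HDM the medians were 1667 CPM per kb for Scgb1a1, 30.4 for Scgb3a1, 14.97 for Scgb3a2, 4.03 for Bpifb1, 2.13 for Bpifa1 and 1.59 for Scgb1c1, and each gene after the first overlapped the next. After HDM + Dex they were 3946 for Scgb1a1, 103 for Scgb3a2, 70.4 for Scgb3a1, 20.3 for Bpifa1, 19.8 for Bpifb1 and 3.12 CPM per kb for Scgb1c1. There Scgb3a2 overlapped Scgb3a1, and Bpifa1 overlapped Bpifb1, which in turn overlapped Scgb1c1.

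**Figure D1:**
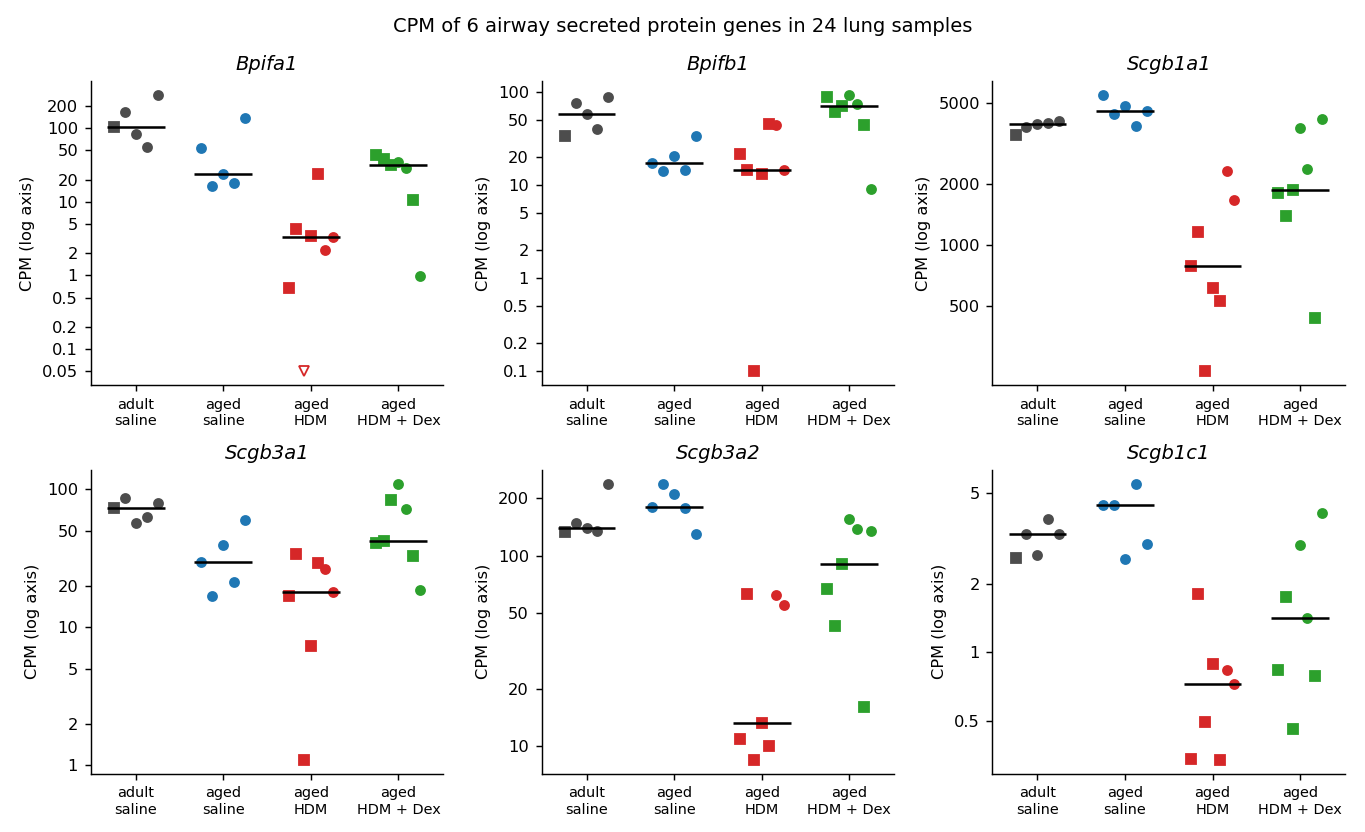
CPM of the 6 genes (log axis) in each sample of the 4 groups. Circles are samples with a 7SL share up to 25%, squares those above 25%, the open triangle is a sample without a read, and the black line is the group median. Scgb1a1, Scgb3a2 and Scgb1c1 lay lower in all 7 HDM samples than in any aged saline sample, whereas Bpifb1 after HDM spread across the aged saline range.

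The first comparison asked which of these genes changed when aged mice were challenged with HDM. Of the 6 genes, 4 were lower after HDM: Bpifa1, Scgb1a1, Scgb3a2 and Scgb1c1, with log2 fold changes of -1.49 to -3.21. Bpifb1 and Scgb3a1 did not pass the test. Among all 17744 genes 25.3% were called, 21.2% lower and 4.04% higher, so that the 4 lower genes stand against a background in which lower calls were common. The median log2 fold change was -1.98 over the 6 genes and -0.23 over all genes. Rescaling by median-of-ratios factors moved the median of all genes by 0.22 to -0.01 and gave 10.9% higher and 11.6% lower calls, with the same 4 genes called and a median of -1.77 over the 6. In whole lung, fewer cells of a type and less RNA per cell cannot be told apart.

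Bpifa1 had 53.5, 16.4, 23.9, 17.9 and 137 CPM in the 5 aged saline samples. After HDM it ranged from no read in replicate 3, where the floor was 0.298 CPM, to 24.2 CPM in replicate 5, with a median of 3.29 CPM. Only replicate 5 reached the aged saline range, and in 32 of 35 pairs the HDM sample was lower. The log2 fold change was -3.21 ± 0.73 (SE; 9.27-fold lower; limma adjusted p = 0.00388), the 4th lowest of all genes tested. With a pseudocount of 0.1 or 5 in place of 1 it was -4.01 or -2.24.

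Scgb3a2 (ENSMUSG00000038791.14, GRCm38 chromosome 18 from 43764289 to 43767399, plus strand) had 180.5, 238, 211, 178 and 129.7 CPM in aged saline samples and 8.46 to 63.1 CPM after HDM, with a median of 13.2 CPM. The groups did not overlap. Its log2 fold change was -2.98 ± 0.54 (limma adjusted p = 0.000906), which placed it 7th from the lowest. Scgb1a1 had 5495, 4422, 4835, 3875 and 4551 CPM in aged saline samples and 240 to 2306 CPM after HDM, with a median of 793 CPM. Every HDM sample was again below every aged saline sample, although Scgb1a1 was still the highest of the 6 genes per kb. Its log2 fold change was -2.46 ± 0.48 (5.52-fold lower; limma adjusted p = 0.00143).

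Scgb1c1, the scarcest of the 6 in adult lungs, had 4.41, 4.41, 2.56, 5.48 and 2.97 CPM in aged saline samples. After HDM it had 0.338 to 1.81 CPM (median 0.725), which rested on only 4 to 27 reads a sample. The groups did not overlap, and the log2 fold change was -1.49 ± 0.27 (limma adjusted p = 0.000912). In all, 3 of the 6 genes were lower without overlap, where 7.69% of all genes tested were.

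Bpifb1, the chromosomal neighbour of Bpifa1, had 17.5, 14.2, 20.8, 14.6 and 33.5 CPM in aged saline samples. After HDM its lowest value was 0.0996 CPM (replicate 3) and its highest 45.4 CPM (replicate 5), with a median of 14.6 CPM. The HDM sample was lower in 18 of 35 pairs, so that the groups were interleaved. The log2 fold change was -0.41 ± 0.66 (limma adjusted p = 0.667), and it was 0.22 (adjusted p = 0.766) without HDM replicate 3. Scgb3a1 had 29.8, 17.01, 39.8, 21.2 and 59.7 CPM in aged saline samples and 1.09 to 33.8 CPM after HDM (median 18.2). The HDM sample was lower in 27 of 35 pairs, with a log2 fold change of -1.06 ± 0.54 (limma adjusted p = 0.149).

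The 4 calls were kept when any one of the 19 aged samples was left out. They moved with the 7SL share. With that share as a covariate, the log2 fold changes were -1.08 for Scgb1a1 (limma adjusted p = 0.0858) and -1.63 for Scgb3a2 (adjusted p = 0.0563), which were then not called, and -3.45 for Bpifa1 (adjusted p = 0.0350) and -1.001 for Scgb1c1 (adjusted p = 0.0435), which were. The samples below 25% 7SL were 2 HDM and 5 aged saline, fitted together with 3 HDM + Dex samples that share the estimate of spread. In that fit 6.04% of all genes were called. Among the 6 genes, Scgb1a1 (-1.23, adjusted p = 0.0182), Scgb3a2 (-1.64, adjusted p = 0.00162) and Scgb1c1 (-1.45, adjusted p = 0.0173) were called. There Bpifa1 had a log2 fold change of -3.28 (adjusted p = 0.0650), and Bpifb1 one of 0.41.

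**Figure D2:**
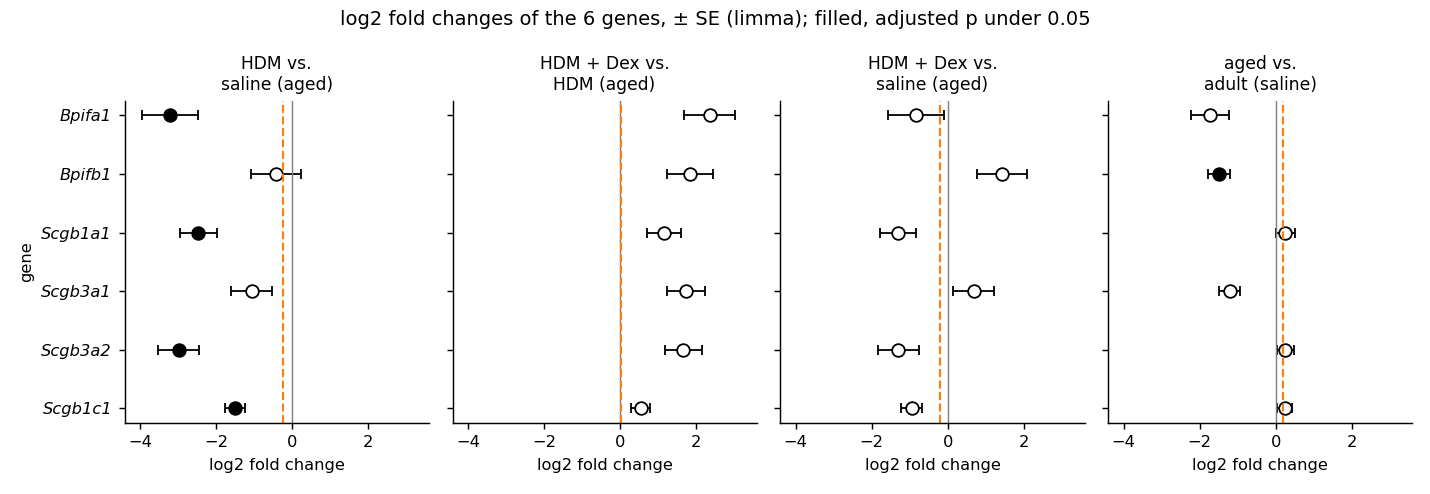
Log2 fold change of the 6 genes in the 4 comparisons, from limma on log2(CPM + 1). Bars are standard errors, filled points have an adjusted p under 0.05, and the orange dashed line is the median of all genes tested. After HDM 4 genes are filled and lie below the line, Bpifb1 lies near it, and all 6 estimates are above 0 for HDM + Dex vs. HDM, with none filled.

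The second comparison asked whether Dex altered these genes in HDM-challenged aged mice. None of the 6 passed the limma test at an adjusted p under 0.05, where 0.964% of all genes did, 0.75% higher and 0.214% lower. All 6 estimates were higher with Dex, as were 56.2% of those of all genes. An unadjusted p under 0.05 with a higher estimate was found for 6 of 6, where 8.5% of all genes had one. The median log2 fold change was 1.71 over the 6 genes and 0.03 over all genes. No gene of the 6 was separated between these groups, where 0.225% of all genes were. Ordered by log2 fold change, Bpifa1 was 2nd from the highest of all genes tested, Bpifb1 5th, Scgb3a1 7th and Scgb3a2 8th.

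Bpifa1 had a median of 3.29 CPM after HDM and of 31.4 CPM after HDM + Dex, where 6 samples had 10.6 to 43.2 CPM and replicate 7 had 0.984 CPM. The Dex sample was higher in 43 of 49 pairs, with a log2 fold change of 2.37 ± 0.67 (limma adjusted p = 0.0875). Bpifb1 had 44.7 to 93.7 CPM in 6 HDM + Dex samples and 9.11 CPM in replicate 7, against 0.0996 to 45.4 CPM after HDM. The same replicate was thus the lowest of its group for both BPI-fold genes. The log2 fold change of Bpifb1 was 1.84 ± 0.61 (adjusted p = 0.145), higher in 42 of 49 pairs.

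Scgb3a1 had 18.6 to 110.4 CPM after HDM + Dex, with a median of 42.1 CPM against 18.2 CPM after HDM. Replicate 7 was again the lowest, and the Dex sample was higher in 45 of 49 pairs (log2 fold change 1.74 ± 0.49, limma adjusted p = 0.0875). Scgb3a2 had 16.02 to 155 CPM (median 90.6, against 13.2 after HDM), with a log2 fold change of 1.68 ± 0.49 (adjusted p = 0.0996). Scgb1a1 had 438 to 4185 CPM (median 1878, against 793), with a log2 fold change of 1.16 ± 0.44 (adjusted p = 0.216). Here replicate 6 was the lowest for both club cell secretoglobins, and replicate 7 was the highest for Scgb1a1. Scgb1c1 had 0.463 to 4.07 CPM (median 1.42, against 0.725), with a log2 fold change of 0.55 ± 0.25 (adjusted p = 0.322).

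The calls of this comparison depended on the model and on single samples. With all 24 samples in one fit, Bpifa1 (adjusted p = 0.0457), Scgb3a1 (0.0375) and Scgb3a2 (0.0482) passed, and with sample quality weights Bpifa1 (0.0240), Bpifb1 (0.0325), Scgb3a1 (0.0217) and Scgb3a2 (0.0268) did. Of all genes 316 passed in the former fit and 611 in the latter, against 171 in the main fit. Leaving out HDM + Dex replicate 7 gave Bpifa1 an adjusted p of 0.0371, and leaving out replicate 6 gave Scgb1a1 0.0398 and Scgb3a2 0.0188. Without HDM replicate 2, Scgb3a1 had an adjusted p of 0.0375 and Scgb3a2 of 0.0350, and without HDM replicate 6 Scgb3a2 had 0.0364.

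HDM + Dex samples were then set against aged saline samples, which share the HDM + Dex group with the comparison above and the saline group with the first. None of the 6 genes passed the limma test, where 1.89% of all genes did, and 4 of 6 had an unadjusted p under 0.05, where 21.2% of all genes had one. Over all genes 79 were higher (0.445%) and 256 lower (1.44%) as deposited, and 89 (0.502%) and 81 (0.456%) after median-of-ratios rescaling. The estimates of the 6 genes went both ways. Bpifb1 had a log2 fold change of 1.43 ± 0.66 (adjusted p = 0.222), and the HDM + Dex sample was higher in 30 of 35 pairs. Scgb3a1 had 0.68 ± 0.54 (adjusted p = 0.445), higher in 27 of 35 pairs. The estimates of the other 4 genes were negative: -0.84 ± 0.73 for Bpifa1 (adjusted p = 0.488), -1.31 ± 0.48 for Scgb1a1 (0.143), -1.30 ± 0.54 for Scgb3a2 (0.179) and -0.95 ± 0.27 for Scgb1c1 (0.0662). For Scgb1a1 the HDM + Dex sample was lower in 34 of 35 pairs. All 6 genes overlapped between the groups, where 2.4% of all genes did not. The median was -0.90 over the 6 genes and -0.19 over all genes.

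Sample quality weights called 4 genes in this comparison, Bpifb1 higher (limma adjusted p = 0.0121) and Scgb1a1 (0.00547), Scgb3a2 (0.0149) and Scgb1c1 (0.00326) lower. With these weights 5471 of 17744 genes were called, against 335 without them. Scgb1c1 was also called with sex as a covariate (0.0275) and when HDM + Dex replicate 4 (0.0400) or replicate 7 (0.0182) was left out. Of all genes 1929 were called with sex as a covariate, and 574 and 643 were lower without replicate 4 and without replicate 7.

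The last comparison set aged against adult mice, both given saline. Bpifb1 was lower in aged lungs, the only one of the 6 genes to pass the test, where 0.654% of all genes passed, 0.592% higher and 0.062% lower. Bpifb1 had 33.4, 76.4, 57.6, 40.2 and 89.3 CPM in adult and 17.5, 14.2, 20.8, 14.6 and 33.5 CPM in aged samples. The highest aged sample only just passed the lowest adult sample, and the aged sample was lower in 24 of 25 pairs. The log2 fold change was -1.49 ± 0.28 (2.81-fold lower; limma adjusted p = 0.0167), against a median of 0.19 over all genes.

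Bpifa1 had 105, 164, 83.8, 55.5 and 285 CPM in adult samples, and the aged sample was lower in 22 of 25 pairs. Its log2 fold change was -1.72 ± 0.51, the 6th lowest of all genes tested, but the adjusted p was 0.164 with limma. The samples of both ages were widely spread, with a coefficient of variation of 65.5% in adult and 103% in aged mice, and aged replicate 5 lay above 3 of the adult samples. Scgb3a1 had 73.6, 86.1, 56.9, 62.9 and 80.4 CPM in adult samples, and the aged sample was lower in 24 of 25 pairs (log2 fold change -1.20 ± 0.28, adjusted p = 0.0590).

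The club cell secretoglobin Scgb1a1 had 3484, 3837, 3964, 3993 and 4089 CPM in adult samples, with a coefficient of variation of only 6.08%. Its log2 fold change with age was 0.25 ± 0.25 (limma adjusted p = 0.668). Scgb3a2 had 132, 147, 139.6, 135 and 239 CPM in adult samples, the last in the sample with stratified epithelium markers, and a log2 fold change of 0.25 ± 0.22 (adjusted p = 0.633). Scgb1c1 had 2.58, 3.31, 2.66, 3.84 and 3.28 CPM and a log2 fold change of 0.24 ± 0.20 (adjusted p = 0.625). All 6 genes overlapped between the ages, where 3.09% of all genes did not. The estimates of the last 3 genes were close to the median of all genes, which was 0.19.

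All adult samples were female, so that age and sex are partly confounded. With sex as a covariate Bpifb1 had a log2 fold change of -1.62 (limma adjusted p = 0.0703), and Bpifa1 one of -2.46 (adjusted p = 0.0989). The adjusted p of Bpifb1 was 0.0710 without adult replicate 2, 0.0575 without aged replicate 2, 0.0606 without aged replicate 4 and 0.399 with all 24 samples in one fit. Without aged replicate 5, Bpifa1 (adjusted p = 0.0171) and Scgb3a1 (0.00801) were also called. After median-of-ratios rescaling Bpifb1 (0.00466) and Scgb3a1 (0.0360) were called, where 1.03% of all genes were (103 higher and 80 lower, against 105 and 11 as deposited).

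Whether each gene followed Bpifa1 was tested as the difference between its log2 fold change and that of Bpifa1, from the log2 ratio of the 2 genes in each sample. After HDM, Bpifb1 and Scgb3a1 had log2 fold changes above that of Bpifa1. The difference was 2.80 ± 0.93 for Bpifb1 (limma adjusted p = 0.00376, exact permutation p = 0.00253) and 2.15 ± 0.93 for Scgb3a1 (adjusted p = 0.0215, exact permutation p = 0.00505). Since every ratio holds the values of Bpifa1, 98.2% of all genes differed from it in this comparison. The ratios also share the spread of Bpifa1, which limma treats as separate estimates. Its p-values for differences from Bpifa1 may thus be too small, here and in the comparisons below. Scgb3a2 differed by 0.24 ± 0.92 (adjusted p = 0.798, exact permutation p = 0.823), Scgb1a1 by 0.75 ± 0.92 (adjusted p = 0.417, exact permutation p = 0.399) and Scgb1c1 by 1.72 ± 0.93 (adjusted p = 0.0652, exact permutation p = 0.0884). The 95% intervals of the differences, from normal quantiles and so somewhat narrow, were -1.57 to 2.05 for Scgb3a2 and -1.06 to 2.56 for Scgb1a1. They include changes of the same size as that of Bpifa1 as well as clearly weaker and clearly stronger ones.

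Of these, the call of Scgb3a1 was lost without aged saline replicate 1 (limma adjusted p = 0.0529), aged saline replicate 5 (0.0527) or HDM replicate 1 (0.0519). That of Scgb1c1 was gained without aged saline replicate 2 (0.0457), aged saline replicate 4 (0.0432), HDM replicate 5 (0.0109) or HDM + Dex replicate 7 (0.0220).

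With Dex added to HDM, the estimates of the other 5 genes were all below that of Bpifa1, with differences of -0.53 for Bpifb1, -0.63 for Scgb3a1, -0.69 for Scgb3a2, -1.21 for Scgb1a1 and -1.82 for Scgb1c1. Only the last passed the limma test (-1.82 ± 0.85, adjusted p = 0.0333, where 97.1% of all genes passed), with an exact permutation p of 0.0810. With a pseudocount of 0.1 it did not pass. Adding 1 CPM before taking log2 understates the change of a gene as low as Scgb1c1. Scgb1c1 was not called when any one of 9 samples was left out, with adjusted p-values up to 0.0836. Without HDM + Dex replicate 7, Scgb1a1 (-1.96, adjusted p = 0.00592) and Scgb3a2 (-1.39, adjusted p = 0.0446) also passed. Without HDM replicate 5, Scgb1a1 did (adjusted p = 0.0253).

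For HDM + Dex vs. saline no gene of the 5 differed from Bpifa1 by limma, where 0.062% of all genes did. The unadjusted p of limma was under 0.05 for 1 gene, Bpifb1 (2.27 ± 0.93, adjusted p = 0.778), where that of 0.705% of all genes was. The exact permutation p was 0.00253 for Bpifb1 and 0.0227 for Scgb3a1 (difference 1.53). These p-values were not adjusted, and the exact test was not run on other genes, so no share of all genes stands beside them.

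With age, the differences from Bpifa1 were smallest for Bpifb1 and Scgb3a1. Bpifb1 differed from Bpifa1 by 0.23 ± 0.77 (limma adjusted p = 0.765, exact permutation p = 0.643) and Scgb3a1 by 0.52 ± 0.77 (adjusted p = 0.498, exact permutation p = 0.310). Scgb1a1 (1.97 ± 0.79), Scgb3a2 (1.97 ± 0.77) and Scgb1c1 (1.96 ± 0.78) were higher relative to Bpifa1, each with a limma adjusted p of 0.0267. As 92.4% of all genes were called, such a call does not set these 3 genes apart. Their exact permutation p-values were 0.0238, 0.0397 and 0.0476. All 3 calls were lost when any one of 6 samples was left out (adult replicates 1, 2 and 5 and aged replicates 2, 3 and 4), with adjusted p-values of 0.0705 to 0.0878.

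The same question was asked within groups, in the 19 aged samples, by regressing each gene on Bpifa1 with the group means removed. Bpifb1 had a slope of 0.67 ± 0.13 and Scgb3a1 one of 0.50 ± 0.12 log2 units per log2 unit of Bpifa1. Ordered by the ratio of slope to SE, they were 3rd and 7th from the highest of 17743 genes. Scgb1a1 (0.01 ± 0.14) and Scgb3a2 (-0.03 ± 0.16) had slopes near 0, and Scgb1c1 had -0.12 ± 0.08. No gene of the 5 passed the limma test over all genes. The adjusted p was 0.293 for Bpifb1 and 0.637 for Scgb3a1, and 0.00564% of all genes passed. An unadjusted p under 0.05 was found for 2 of the 5 and for 4.43% of all genes. With a pseudocount of 0.1 Bpifb1 (0.0143) and Scgb3a1 (0.0361) passed, and with all 24 samples Bpifb1 did (0.0491). On linear CPM in place of the log2 scale, Scgb3a1 ranked only 488th (limma adjusted p = 0.934) and Bpifb1 below it (adjusted p = 0.936).

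**Figure D3:**
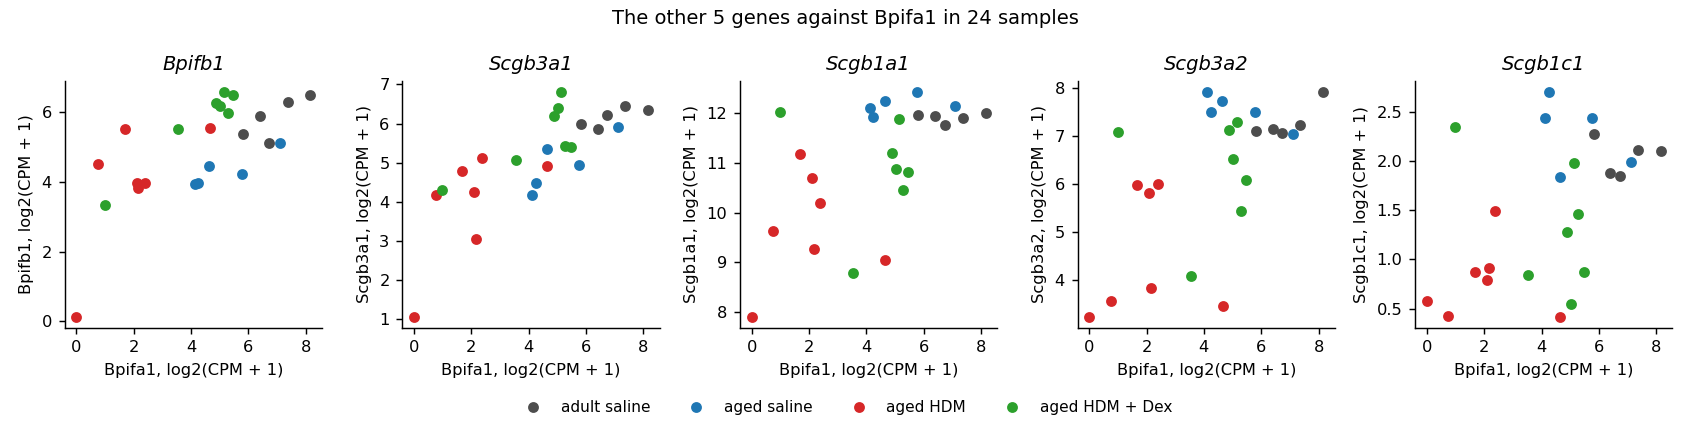
Log2(CPM + 1) of the other 5 genes against that of Bpifa1, 1 point per sample, colored by group. Bpifb1 and Scgb3a1 increase with Bpifa1 within the groups, while Scgb1a1 and Scgb3a2 have no common slope on Bpifa1 over the groups (r of 0.02 and -0.04 in the 19 aged samples). Scgb3a2 tends upward with Bpifa1 among the 5 adult samples and downward among the 5 aged saline samples.

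The 15 pairs of the 6 genes were compared with group means removed, and r was highest for Scgb1a1 with Scgb3a2 and within the triplet of Bpifa1, Bpifb1 and Scgb3a1. Bpifa1 and Bpifb1 had a Pearson r of 0.74 (p = 0.000590 from 100000 permutations within groups) and a Spearman rho of 0.70 (p = 0.00123), and r was 0.82 without the samples farthest from the median of Bpifa1, HDM replicates 1 and 3. Bpifa1 and Scgb3a1 had r = 0.68 (permutation p = 0.00241) and rho = 0.61 (permutation p = 0.00687), with r = 0.66 without the same samples. Bpifb1 and Scgb3a1, which lie on different chromosomes, had r = 0.87 (permutation p = 0.000110) and rho = 0.77 (permutation p = 0.000330), and r was 0.71 without HDM replicate 3 and HDM + Dex replicate 4. This triplet also varied together in the samples below 25% 7SL (r = 0.83, 0.90 and 0.92 in the order given) and in those above (0.75, 0.67 and 0.87). With any 1 sample left out r stayed between 0.64 and 0.80 for Bpifa1 with Bpifb1, between 0.63 and 0.71 for Bpifa1 with Scgb3a1 and between 0.73 and 0.91 for Bpifb1 with Scgb3a1. Without both HDM replicate 3 and HDM + Dex replicate 7, the samples lowest in all 3 genes of their groups, these were 0.57, 0.50 and 0.63 (n = 17). On linear CPM r was 0.48 for Bpifa1 with either gene and 0.72 for Bpifb1 with Scgb3a1.

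Adjusted over all genes, Scgb3a1 rose with Bpifb1 (slope 0.71 ± 0.09, limma adjusted p = 0.000744, the 2nd highest ratio of slope to SE, where 0.062% of genes passed). The reverse fit gave Bpifb1 a slope of 1.08 ± 0.13 on Scgb3a1 (adjusted p = 0.000277, where 0.0451% of genes passed). Bpifa1 had a slope of 0.82 ± 0.16 on Bpifb1 (adjusted p = 0.0651).

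The club cell pair Scgb1a1 and Scgb3a2 had r = 0.90 (permutation p = 1e-05, the smallest that the permutations can give) and rho = 0.91 (permutation p = 3e-05). Without HDM replicate 3 and HDM + Dex replicate 6 it was 0.85. This relation was 0.84 in samples above 25% 7SL (n = 9) but 0.12 in those below (n = 10), so that it did not hold within both. As all 5 aged saline samples lie below 25%, this split also divides the groups. By group r was 0.02 in aged saline, 0.88 after HDM and 0.96 after HDM + Dex. Scgb3a2 had a slope of 1.02 ± 0.11 on Scgb1a1 (limma adjusted p = 2.24e-05), but 38.4% of all genes passed that test. With Bpifa1, Scgb1a1 had r = 0.02 (permutation p = 0.946) and Scgb3a2 r = -0.04 (permutation p = 0.895), and Scgb1c1 had r = -0.35 with Bpifa1 (permutation p = 0.189) and 0.53 with Scgb3a2 (permutation p = 0.0321). Scgb3a1 was not set apart from the club cell pair, with r = 0.51 with Scgb1a1 (permutation p = 0.0580) and 0.43 with Scgb3a2 (permutation p = 0.125), about that of Scgb1a1 with Scgb1c1 (0.50). With Scgb1a1 it had r = 0.71 above and -0.11 below 25% 7SL, and a slope of 0.58 ± 0.22 (limma adjusted p = 0.0425) in the fit that 38.4% of genes passed. By group this r was 0.34 in aged saline, 0.75 after HDM and 0.19 after HDM + Dex. HDM + Dex replicate 7 had the lowest Bpifa1, Bpifb1 and Scgb3a1 of its group beside the highest Scgb1a1 and Scgb1c1.

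**Figure D4:**
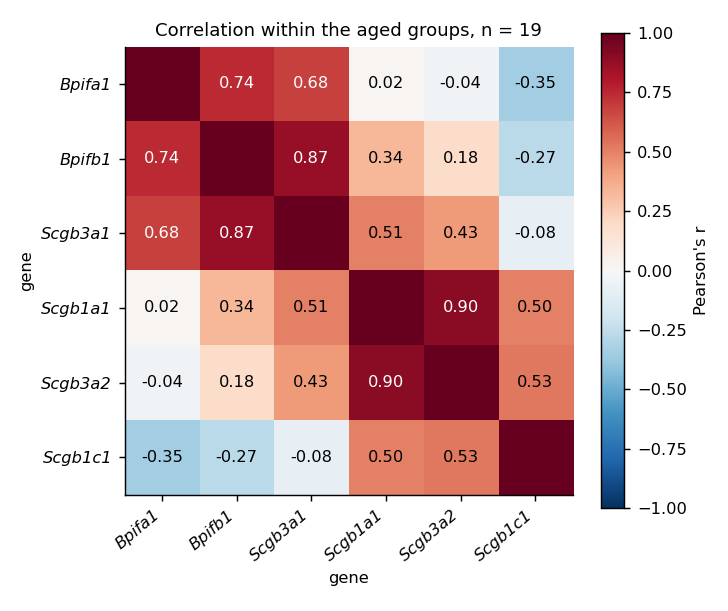
Pearson r between the 6 genes over the 19 aged samples, from log2(CPM + 1) with group means removed. Bpifa1, Bpifb1 and Scgb3a1 form one block of high r (0.68 to 0.87), and Scgb1a1 with Scgb3a2 (0.90) another, with Scgb3a1 between them (0.51 with Scgb1a1 and 0.43 with Scgb3a2).

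The 6 genes were also set against measures of the samples, with 42 relations computed. The 7SL share was negatively related to Scgb1a1 (r = -0.79, permutation p = 0.000280), Scgb3a2 (r = -0.68, permutation p = 0.00687) and Scgb1c1 (r = -0.54, permutation p = 0.0415), with r of 0.09 for Bpifa1, -0.15 for Bpifb1 and -0.34 for Scgb3a1. As 7SL is part of the CPM total, a higher share by itself lowers the CPM of all other genes. The part of this in the relations above was not tested. How many of all genes were related to the 7SL share was not computed. The summed level of 11 other club cell genes went with Scgb1a1 (r = 0.89) and Scgb3a2 (r = 0.93) and that of 14 ciliated cell genes likewise (0.92 and 0.90), whereas Bpifa1 had -0.06 and 0.13. Scgb3a1 went with the ciliated sum as well (r = 0.63, permutation p = 0.0158, and 0.27 without the farthest samples) and had 0.47 with the club cell sum (permutation p = 0.0758), and Bpifb1 had 0.44 and 0.20 in that order. The sum of 12 goblet cell genes went with Bpifb1 (r = 0.81, permutation p = 5e-05), Bpifa1 (r = 0.68, permutation p = 0.00605) and Scgb3a1 (r = 0.60, permutation p = 0.00914). The sum of 12 heart muscle genes, which mark the muscle sleeve of the pulmonary veins or attached heart tissue, went with Scgb3a1 (r = 0.71, permutation p = 0.00156), Bpifb1 (r = 0.56, permutation p = 0.0283) and Bpifa1 (r = 0.56, permutation p = 0.0232).

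These marker sums also moved with the conditions. The club cell sum was 3074 to 4295 CPM in aged saline, 754 to 2329 after HDM and 1047 to 3137 after HDM + Dex, and the ciliated sum was 1570 to 2073, 418 to 1384 and 826 to 1705 CPM. The heart muscle sum was 639 to 1197, 34.4 to 486 and 71.9 to 1383 CPM in the same order. It was thus lower after HDM in every sample, as were the club and ciliated sums, and HDM + Dex replicate 7, lowest in Bpifa1, was lowest in it as well. The goblet cell sum was 156 to 378, 258 to 1240 and 292 to 1768 CPM. The part of these cell types in the changes of Bpifa1 and the other 5 genes was not tested.

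**Figure D5:**
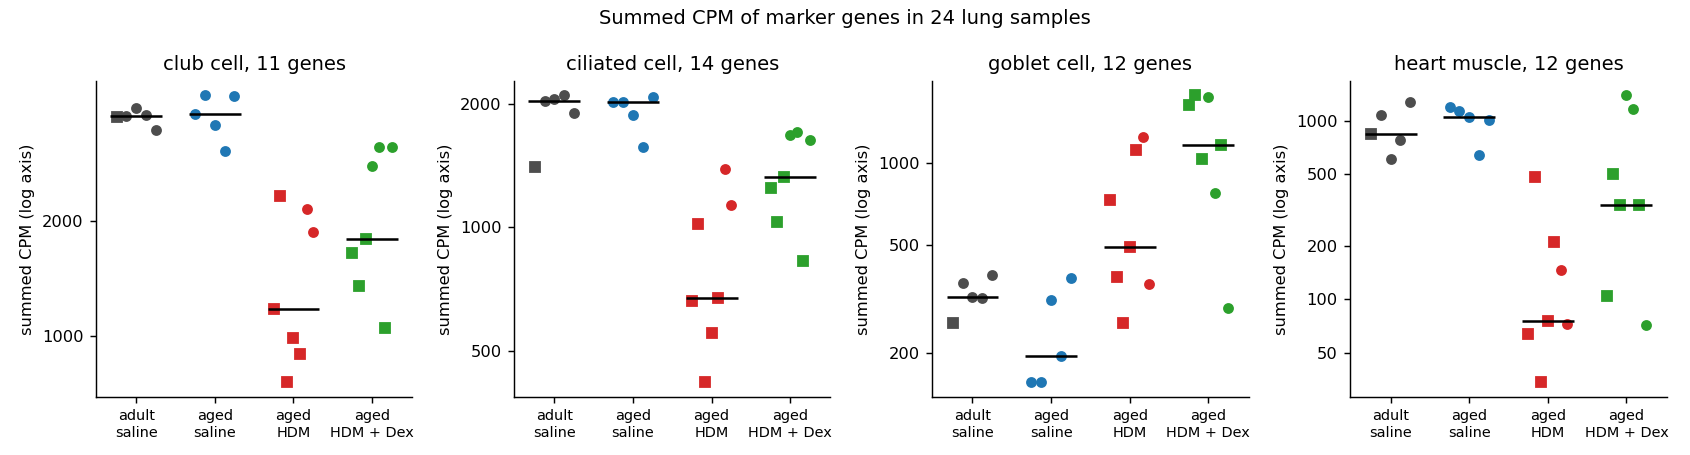
Summed CPM (log axis) of club cell (11 genes), ciliated cell (14), goblet cell (12) and heart muscle (12) markers in each sample by group, with circles up to and squares above 25% 7SL and the group median as a line. Club, ciliated and heart muscle sums of all HDM samples lie below those of aged saline samples, and the goblet cell sum does not.

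By gene, 10 of the 11 club cell markers were lower after HDM by limma and none was higher, with a median log2 fold change of -1.30. Of all genes 21.2% were lower and 4.04% higher, with a median of -0.23. Cyp2f2, the club cell cytochrome P450, fell by 2.90 on the log2 scale (adjusted p = 0.00112) and Aldh1a1, a retinal dehydrogenase, by 2.10 (adjusted p = 0.000509). All 14 ciliated cell markers were lower, with a median of -1.62. Of 10 goblet cell markers tested 6 were higher and none lower, among them Clca1 (6.15, adjusted p = 8.88e-05), whereas the gel-forming mucin Muc5b had -0.37 (adjusted p = 0.594), as close to 0 as Bpifb1. All 12 heart muscle markers were lower (median -2.53). Below 25% 7SL, 4 of 11 club, 8 of 14 ciliated, 4 of 10 goblet and 6 of 12 heart muscle markers were called in the same directions. There 6.04% of all genes were called either way.

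With Dex added to HDM, 8 of the 14 ciliated cell markers were higher, among them the dynein gene Dnah9 (1.19, limma adjusted p = 0.0270), and so was 1 of the 12 heart muscle markers, Myom1 (0.98, adjusted p = 0.0270). Below 25% 7SL, where 0.062% of all genes were called, 0 of the 14 and 0 of the 12 were called, and after median-of-ratios rescaling, where 2.85% of all genes were, 11 and 2. Of all genes 133 (0.75%) were higher in the main fit, 0 with only these 2 groups fitted and 2 with a replicate block. Without HDM replicate 1, 3, 4 or 5 there were 1, 3, 3 and 1 higher genes in all. Without HDM + Dex replicate 1, 3, 4 or 5 there were 1, 2, 1 and 1, so that the 8 ciliated calls could not all stand. Without any other HDM or HDM + Dex sample there were 67 to 385. In the main fit no club or goblet cell marker passed, as none of the 6 secreted protein genes did, and 2 of 11 club cell markers passed after rescaling. The median log2 fold changes were 1.16 for ciliated, 0.72 for club, 0.63 for goblet and 1.26 for heart muscle markers. Against aged saline, 5 of 10 goblet cell markers were higher after HDM + Dex (2 below 25% 7SL), where 0.445% of all genes were. No club, ciliated or heart muscle marker was called there. With age 1 goblet cell marker was lower, Clca1 (-1.96, adjusted p = 0.00522), where 0.062% of all genes were, and no club, ciliated or heart muscle marker was called.

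Other sources of airway secretions were looked at by marker lists. Of 6 basal and stratified epithelium markers none was called in any comparison. Of 5 serous gland markers 3 were lower after HDM (21.2% of all genes), among them Azgp1 (-1.83, limma adjusted p = 0.00117), 2 were lower for HDM + Dex vs. saline (1.44%) and 1 was higher with age (0.592%). Of these calls 1 was left after HDM below 25% 7SL, and those of the other comparisons were lost both there and after rescaling. Of the alveolar genes, 1 of 10 type 2 markers was higher after HDM (Sftpd, 0.79, adjusted p = 0.0201), where 4.04% of all genes were. Of 10 type 1 markers 5 were lower after HDM (21.2% of all genes) and 1 was lower for HDM + Dex vs. saline (1.44%). None of these type 2 and type 1 markers was called in the same direction below 25% 7SL. Only 1 of 12 airway cartilage genes, which would mark large airways, passed the filter, and it was not called.

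Few other family members were tested. Of 15 other BPI-fold genes listed, 4 were found by symbol and 3 passed the filter, and of these Bpifb5 was lower after HDM (-0.54, limma adjusted p = 0.0390), a call lost after rescaling (adjusted p = 0.0913) and below 25% 7SL (adjusted p = 0.707). The lipid-transfer genes Pltp (-0.32, adjusted p = 0.155) and Lbp (-0.11, adjusted p = 0.762) did not pass. The 14 other secretoglobin genes listed, such as Scgb1b2, were not analysed here.

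Among 10 genes for proposed partners of these proteins, 2 were lower after HDM, where 21.2% of all genes were, and none passed in the other comparisons. After rescaling 2 were lower and 2 higher, and below 25% 7SL none was called. The 2 lower genes were Scnn1b (-1.32, limma adjusted p = 0.00293), a subunit of the epithelial sodium channel that SPLUNC1 restrains, and Adcyap1r1 (-0.92, adjusted p = 0.00903), a receptor for the neuropeptide PACAP. Of 19 transcription factor genes of secretory cells, 12 were lower after HDM and none higher, including the forkhead factor Foxa1 (-0.99, adjusted p = 0.00207) and the ETS factor Elf5 (-0.89, adjusted p = 0.00203). After rescaling 8 were lower, and below 25% 7SL only 1, which was neither of these. None was called with Dex vs. HDM (2 higher after rescaling), and 1 was lower for HDM + Dex vs. saline. Of 12 genes of the glucocorticoid response, 9 were lower (21.2% of all genes) and 1 higher (4.04%) after HDM, and none was called for HDM + Dex vs. HDM. For HDM + Dex vs. saline 7 were lower (1.44% of all genes), among them Tsc22d3 (GILZ), with -1.26 (adjusted p = 0.00381). After rescaling the calls of these 12 genes became 4 lower and 1 higher after HDM and 3 lower and 1 higher for HDM + Dex vs. saline. Below 25% 7SL they were 2 lower and 1 higher after HDM and 2 lower for HDM + Dex vs. saline.

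Of 12 genes of the type 2 epithelial response, 9 were higher (4.04% of all genes) and 1 lower (21.2%) after HDM, and 4 were higher for HDM + Dex vs. saline (0.445%). Among immune cell markers, 3 of 8 neutrophil genes were lower (21.2% of all genes) and 2 of 6 eosinophil genes higher (4.04%) after HDM. With age 6 of 8 neutrophil genes were higher (0.592% of all genes), with a median log2 fold change of 1.90, beside the lower Bpifb1, and so was 1 eosinophil gene. Below 25% 7SL, 5 type 2 response genes were higher after HDM, no neutrophil or eosinophil gene was called after HDM, and 4 neutrophil genes were higher with age. There 6.04% of all genes were called after HDM, and 100 of 17744 were higher with age.

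The genes most like each of the 6 were found by Pearson r of log2(CPM + 1) over all 24 samples, group differences included. For Bpifa1 the 9 nearest were Pdlim3 (0.86), Lypd2 (0.84), Plin4 (0.84), Lgr6 (0.83), Actc1 (0.82), Wdr72 (0.81), Myom1 (0.81), Tnni3 (0.80) and Ppargc1a (0.80). Of these, Actc1, Myom1 and Tnni3 are on the heart muscle list, and none is a BPI-fold or secretoglobin gene. Scgb3a1 was 16th (0.79) and Bpifb1 116th (0.69) of 17743 genes ordered by r with Bpifa1. Bpifb1 was nearest to Muc5b (0.92), Scgb3a1 (0.89) and Kcnmb1 (0.85), and Scgb3a1 was nearest to Bpifb1 (0.89), Kcnmb1 (0.87) and Muc5b (0.87). Scgb1a1 was nearest to Cyp2f2 (0.97), Gabrp (0.97) and Wdr63 (0.96), Scgb3a2 to Ldhb (0.98), Mlf1 (0.97) and Bbof1 (0.97), and Scgb1c1 to Gstm2 (0.90), Pon1 (0.89) and Abcc9 (0.88).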

How the data were processed

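Lung RNA-Seq values of 24 samples in 4 groups, assigned by the sample labels, were analysed. The authors' methods give a stranded mRNA kit and the Picard-STAR-limma pipeline, and the submitters' processing notes name FastQC, STAR, DESeq2 and mm9. The authors deposited CPM per gene plus a constant of 0.0001. Of 23229 symbols found once in the GENCODE annotation of GRCm38, 23096 (99.4%) had the same start as in the deposited table, so GRCm38 coordinates are given. A file of download instructions was not used.

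Depth was estimated from the spacing of low CPM, taken as 1 read, and gave 10.1 to 33.1 M reads a sample. Of the values below 20 spacings, 80.7% to 85.3% were whole multiples within 0.05, so the values were not converted to counts. This depth bounds counting error only.

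Tests used limma 3.58.1 in R 4.3.3 on log2(CPM + 1), with eBayes with trend and Benjamini-Hochberg adjustment at 0.05 over the 17744 genes whose mean reached 1 CPM. Fold changes are on that scale, which understates those of low genes. One fit held the 19 aged samples and another the 10 saline samples. Differences from Bpifa1 were fitted on log2 ratios to it and also tested by two-sided exact permutation of samples between groups. Correlations used residuals from group means and 100000 permutations within groups (Python 3.11.15, numpy 2.4.6, pandas 2.3.3, scipy 1.17.1, figures with matplotlib 3.10.9). Scripts were tested on simulated data. The labels number the samples without naming animals, so p-values measure the spread between these samples. The genes named were the 6, up to 4 of each marker list (highest mean CPM and lowest p), the 10 nearest to Bpifa1, of which 1 is not reported here, and the 3 nearest to each other gene. The 6 genes and the lists were chosen with earlier results of these data known. Genes of the antisense strand or overlapping genes may share reads, since the handling of strand in counting is not given in the sources used here.

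Alternatives were other pseudocounts, filters, median-of-ratios rescaling, other fits, sample quality weights, a replicate block, sex and 7SL covariates and leaving out each sample. The subset below 25% 7SL and the relations among all pairs were added after seeing the data.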

Additional observations from a re-analysis of the deposited data

Results flagged for a closer look

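In each of the 6 genes and 4 groups, the highest and the lowest sample were compared with their nearest neighbour on the log2(CPM + 1) scale by Dixon's ratio of gap to range. Of these 24 groups of values, 4 held a sample farther out than the 95% critical value. Chance gives about 5% of independent groups. These 24 are not independent, since the 6 genes were measured in the same samples and some vary together, so no excess over chance can be read from the count.

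Bpifa1 was lowest in HDM + Dex replicate 7, with 0.984 CPM and a ratio of 0.570 against a critical value of 0.568. Bpifb1 was lowest in the same sample, with 9.11 CPM and a ratio of 0.674. Bpifb1 was also lowest in HDM replicate 3, with 0.0996 CPM, a single read, and a ratio of 0.680, in the sample with the fewest reads of all. Scgb3a2 was highest in adult saline replicate 5, with 239 CPM and a ratio of 0.815 against a critical value of 0.710, in the sample that also held 757 CPM of Krt13 and 678 CPM of Krt4, keratins of stratified epithelium. The part of depth or of other tissue in these values was not tested.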

How the results depend on the processing

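Of the 6 genes, the 4 called for HDM vs. saline became 2 with the 7SL covariate and 5 with quality weights, where Scgb3a1 was added (adjusted p = 0.0479). For HDM + Dex vs. HDM, 0 became 3 with all 24 samples, 4 with quality weights and 1 with sex. For HDM + Dex vs. saline, 0 became 4 with quality weights and 1 with a pseudocount of 5 or sex. For aged vs. adult, 1 became 2 with median-of-ratios rescaling or quality weights and 0 with all 24 samples or sex. Differences from Bpifa1 went from 1 to 0 for HDM + Dex vs. HDM (pseudocount 0.1 or exact test). They went from 0 to 2 for HDM + Dex vs. saline (exact test, p-values not adjusted), and slopes on Bpifa1 from 0 to 2 (pseudocount 0.1) and 1 (all 24 samples).

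Leaving out each sample gave 4 to 4, 0 to 2, 0 to 1 and 0 to 3 called genes in the order of comparisons above, and 1 to 3, 0 to 3, 0 to 0 and 0 to 3 differences from Bpifa1. These reversed in sign, all on values that were not called: Bpifb1 after HDM, 0.41 below 25% 7SL and 0.22 without HDM replicate 3 (-0.68 to 0.22 over samples left out). Minus Bpifa1 after HDM, Scgb1a1 was -0.22 (pseudocount 5) and Scgb3a2 -0.49 (pseudocount 5), -0.37 (without aged saline replicate 5) and -0.048 (without HDM replicate 6; -0.37 to 0.87 over samples left out). Minus Bpifa1 for HDM + Dex vs. saline, Scgb1c1 was 0.21 (pseudocount 5) and -0.83 to 0.23 over samples left out, above 0 without one of 5 samples. Slopes on Bpifa1 were -0.017 (pseudocount 5), -0.16 (without the 2 farthest samples), -1.14 (linear CPM) and -0.054 (below 25% 7SL) for Scgb1a1, 0.047 (pseudocount 0.1), 0.0036 (all 24 samples) and 0.25 (above 25% 7SL) for Scgb3a2, and 0.028 (above 25% 7SL) for Scgb1c1. The cause was not tested.

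Replicate numbers did not pair the samples, since same-numbered samples correlated over 0.1 in 1 of 5, 2 of 7, 0 of 5 and 0 of 5 pairs, and in no comparison was every sample closest to its own number. With a replicate block 1 gene was called for HDM + Dex vs. saline and 3 for aged vs. adult, and Scgb3a2 minus Bpifa1 after HDM was -0.33.

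Among all genes, the 4482 called for HDM vs. saline became 7876 with quality weights, 1571 with the 7SL covariate and 1072 below 25% 7SL. The 171 for HDM + Dex vs. HDM became 83 without a filter, 506 after rescaling, 1 with those groups alone, 316 with all 24 samples, 611 with weights, 8 with the block, 293 with sex, 563 with the 7SL covariate and 11 below 25% 7SL. The 335 for HDM + Dex vs. saline became 213, 170, 519, 190, 5471, 898, 1929, 34 and 28 in the same order, and 221 without the trend. The 116 with age became 67 with a filter of 5 CPM, 183 after rescaling, 65 with all 24 samples and 784 with weights. Count models (edgeR, DESeq2) were not run, since counts could not be recovered, and Scgb1c1 has no value with a filter of 5 CPM. Scgb1c1 after HDM rests on few reads, and 7SL share, sex and HDM are partly confounded.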
